A study of Oryza sativa Indica Group with 6 samples.

Results

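Expansins and enzymes that remodel xyloglucan loosen the plant cell wall. Genes were taken by symbol or synonym (EXPA, EXPB, EXLA, EXLB, XTH or XET with a number), where a probe set named that gene alone. This gave 30 of the 17905 genes that have such a probe set. They comprise 14 alpha-expansin genes (EXPA), 11 beta-expansin genes (EXPB), 4 expansin-like genes (EXLA) and 1 xyloglucan endotransglucosylase/hydrolase gene, XTH8. The group is therefore almost wholly one of expansins, and xyloglucan modification is represented by a single gene. The annotation names 50 genes of these kinds, and the other 20 were not analysed here. A gene with several probe sets was read from the one with the highest mean signal.

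The samples were seedlings of 3 rice lines with T-DNA insertions, OsPE, Osoc and Ossl, collected 15 days after germination. The series names Basmati, the lines were grown under conditions described as optimal, and no agent was applied. Total RNA of each line was hybridised to 2 Affymetrix rice arrays, labelled as biological replications. All lines carry an insertion and no untransformed line is among the samples used, so each value is a difference between insertion lines. The sources used here do not give the insertion sites, the number of plants per sample or the meaning of the line names.

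Growing plant cells enlarge when their wall yields to turgor. Alpha- and beta-expansins loosen the bonds between cellulose and the matrix polysaccharides without cutting them, and beta-expansins are an expanded family in grasses. Enzymes of the XTH family cut xyloglucan and rejoin it to another xyloglucan chain. Expansin-like A proteins have the expansin domains, but their activity on walls is not established. In rice, expansin transcripts are known from elongating internodes, leaves, coleoptiles and roots, and some beta-expansins are pollen allergens.

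Signals are in arbitrary units, and a signal was called dim when it lay below the 40th percentile of its array, which was 22.5 to 26. Differences are log2 differences of signal + 16, with the standard error (SE) of the limma fit over 39629 probe sets. Calls used an adjusted p below 0.05, Benjamini-Hochberg over all of these probe sets. A probe set entered the tests when 2 or more of its 6 signals were not dim, as was the case for 22 of the 30 genes. A gene can pass this filter through 1 line alone. Signals of different probe sets served only to choose a gene's probe set and the genes described singly, and their order is not one of transcript levels.

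The beta-expansin genes EXPB3 and EXPB4, the alpha-expansin gene EXPA2, XTH8 and the expansin-like gene EXLA2 were the 5 genes that differed between lines. All 5 had their lowest signals in Osoc. Against OsPE, 3 of them fell in Osoc, EXPB3, EXPB4 and EXPA2, by 1.37- to 1.66-fold. Against Osoc, all 5 rose in Ossl, by 1.44- to 2.36-fold. Between Ossl and OsPE, 0 of 22 genes passed.

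**Figure D1:**
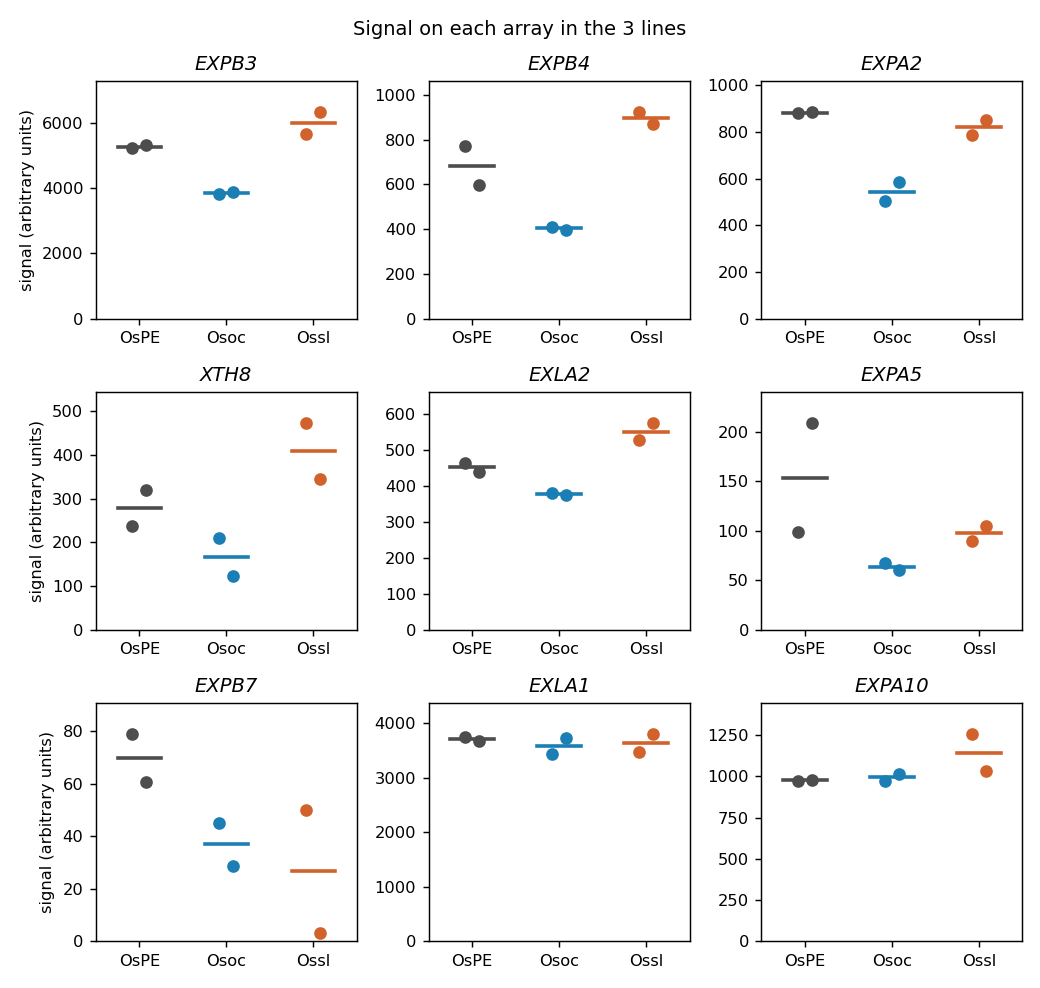
Signal (arbitrary units, vertical axes from 0) on each array of OsPE, Osoc and Ossl for the 9 genes described singly. Points are arrays and horizontal lines are the means of 2 arrays. For EXPB3, EXPB4, EXPA2, XTH8 and EXLA2 both Osoc points lie below all 4 other points, while the Osoc points of EXLA1 and EXPA10 overlap those of OsPE.

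EXPB3, a beta-expansin known from growing internodes of rice, read 5233 and 5321 in OsPE, 3816 and 3884 in Osoc, and 5669 and 6337 in Ossl. The groups did not overlap, with Osoc lowest and Ossl highest. EXPB3 fell by 0.45 (log2; SE 0.07) in Osoc against OsPE, at adjusted p = 0.00136. It rose by 0.64 (SE 0.07) in Ossl against Osoc, at adjusted p = 6.05e-05. Ossl against OsPE did not pass, at 0.18 (95% interval 0.04 to 0.33; adjusted p = 0.129). Without Ossl replicate 1 that last comparison passed, at 0.26 and adjusted p = 0.0385.

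EXPB4, likewise a beta-expansin of vegetative tissue, read 771 and 596 in OsPE, 409 and 398 in Osoc, and 924 and 871 in Ossl. Here too every line was separate from the others, in the same order. EXPB4 fell by 0.73 (SE 0.13) in Osoc against OsPE, at adjusted p = 0.00511. This call ended without OsPE replicate 1, where the difference was -0.55 and adjusted p = 0.0778. The rise in Ossl against Osoc was 1.12 (SE 0.13), at adjusted p = 0.000155. Ossl against OsPE gave 0.39 (95% interval 0.11 to 0.68; adjusted p = 0.0967). The probe set of EXPB4 is of the kind whose probes are shared by transcripts of several genes, by its manufacturer's suffix, so the signal may include related transcripts.

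EXPB3 and EXPB4 are next to each other in the reference annotation, in a row of 4 beta-expansin genes with no other gene between them. The order in that row is EXPB6, EXPB2, EXPB3, EXPB4. EXPB6 had signals from 16.1 to 60.8 and EXPB2 from 6.4 to 65.8, and each was dim on 1 array. Neither passed in any comparison: the differences of EXPB2 were -0.74 (95% interval -1.94 to 0.47) for Osoc against OsPE and 0.84 (-0.37 to 2.04) for Ossl against Osoc. Intervals of this width hold the changes seen in EXPB3 and EXPB4 as well as 0.

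EXPA2, an alpha-expansin, is the third gene that set Osoc apart from both other lines. Its signal was 880 and 886 in OsPE, 503 and 587 in Osoc, and 789 and 851 in Ossl. No Osoc array reached an array of another line, and OsPE lay slightly above Ossl. EXPA2 fell by 0.68 (SE 0.11) in Osoc against OsPE, at adjusted p = 0.00264. It rose by 0.58 (SE 0.11) in Ossl against Osoc, at adjusted p = 0.00518, a call that ended without Osoc replicate 1 (0.47, adjusted p = 0.0549). The difference between Ossl and OsPE was -0.11 (95% interval -0.35 to 0.14; adjusted p = 0.67).

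XTH8, whose transcript is known to respond to gibberellin in rice, read 237 and 321 in OsPE, 210 and 124 in Osoc, and 473 and 345 in Ossl. The lines did not overlap, but the arrays of each line lay far apart. In Ossl against Osoc the gene rose by 1.24 (SE 0.25), at adjusted p = 0.00673. The call ended without Osoc replicate 2 (0.89, adjusted p = 0.0717) and without Ossl replicate 1 (1.02, adjusted p = 0.0749). Osoc against OsPE gave -0.72 (95% interval -1.26 to -0.17; adjusted p = 0.122), and Ossl against OsPE gave 0.52 (-0.02 to 1.07; adjusted p = 0.266).

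EXLA2 read 464 and 438 in OsPE, 380.3 and 376 in Osoc, and 526 and 574 in Ossl. It rose by 0.52 (SE 0.13) in Ossl against Osoc, at adjusted p = 0.0205. This call was ended by 6 of 18 settings, more than any other: leaving out Osoc replicate 1, Osoc replicate 2 or Ossl replicate 2 gave adjusted p = 0.0837, 0.0967 and 0.118, and centring the arrays on their medians gave 0.0505. The probe set carries the suffix for possible cross-hybridisation. A second probe set of EXLA2, without that suffix, rose by 0.55 (SE 0.15) in the same comparison, at adjusted p = 0.0378.

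These counts were read against all probe sets tested. In Osoc against OsPE, 3 of 22 genes were lower and 0 higher, while 7.46% of all probe sets were called, 3.85% lower and 3.61% higher. In Ossl against Osoc, 5 of 22 were higher and 0 lower, beside 11.2% of all probe sets, 5.93% higher and 5.27% lower. With the filter raised to the 60th percentile, 13 of these genes were tested and again 3 and 5 of them were called. All probe sets then gave 7.14% lower in the first comparison and 10.7% higher in the second. For Ossl against OsPE limma called 0 of 22, while 7.92% of all probe sets passed, 4.11% higher and 3.81% lower. An unadjusted p below 0.05 was reached by 4 genes there, EXPB3 and EXPB4 higher and EXPB7 and EXPB11 lower. The share of all probe sets at that unadjusted level was not counted.

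The moderated F test over the 3 lines called 5 of 22 genes, the same 5, beside 14.8% of all probe sets. EXPA2, EXPB3 and EXPB4 were lower in Osoc than in both other lines, which held for 1.82% of all probe sets. No gene of the group was higher in Osoc than in both other lines, beside 1.69% of all. None set Ossl or OsPE apart, beside 2.32% of probe sets higher and 1.83% lower in Ossl, and 1.01% and 1.1% in OsPE.

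All of these calls rest on limma's model of the variance as a trend of the signal. Without that trend 0 of 22 genes passed in each comparison, and among all probe sets the numbers fell to 28 for Osoc against OsPE and 402 for Ossl against Osoc. The adjusted p of the 8 calls then lay between 0.0675 for EXPB4 and 0.198 for EXPB3.

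**Figure D2:**
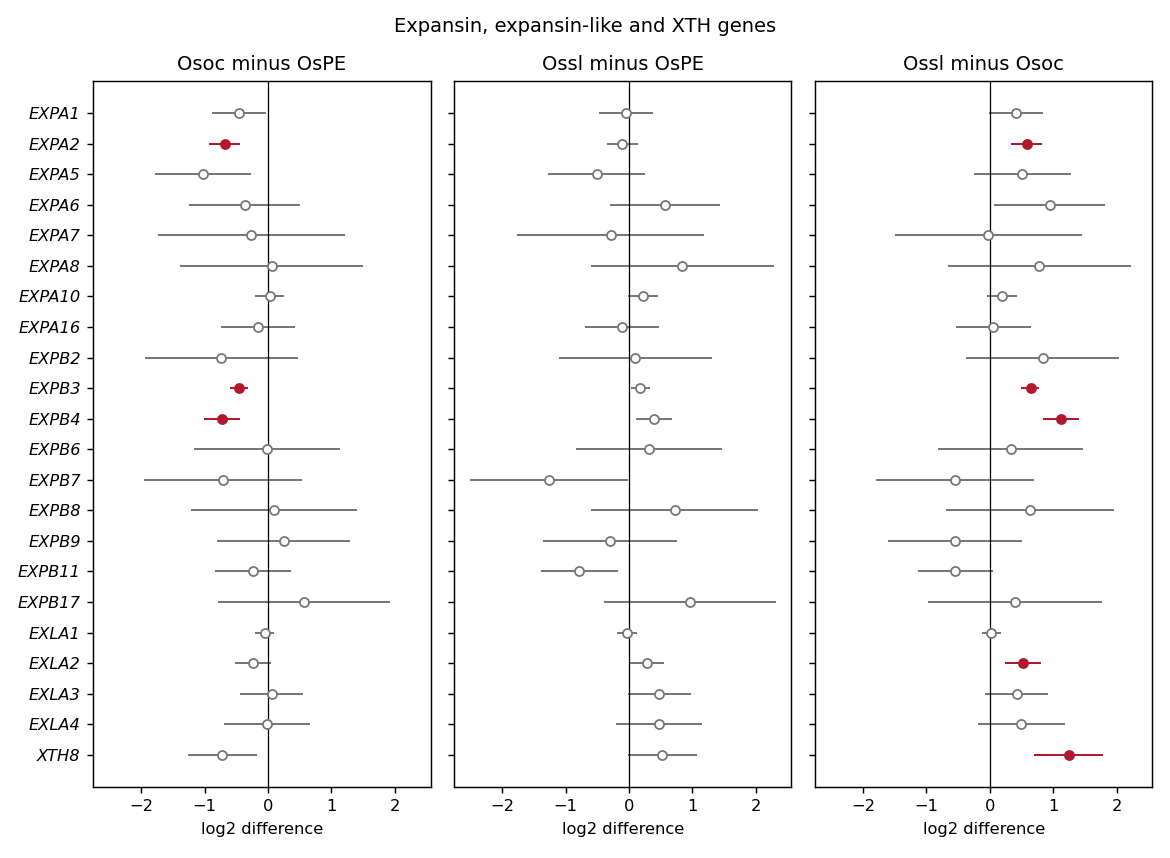
Log2 difference of signal + 16 between lines (horizontal axes) for the 22 genes tested, with unadjusted 95% intervals of the limma fit. Filled red points passed at an adjusted p below 0.05. The 3 filled points for Osoc minus OsPE lie below 0, the 5 for Ossl minus Osoc lie above 0, and the middle panel has none.

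The median difference over the 22 genes was -0.24 between Osoc and OsPE, beside -0.03 over all probe sets. For Ossl it was 0.20 relative to OsPE, beside -0.024, and 0.46 relative to Osoc, beside 0.004. These comparisons share arrays in pairs, so the medians are not independent of each other. Both Osoc arrays lay below the other 4 arrays for 8 genes: EXPA1, EXPA2, EXPA5, EXPA6, EXPB3, EXPB4, EXLA2 and XTH8. That arrangement held for 13.3% of all probe sets. The opposite one, both Osoc arrays above the other 4, held for 0 of the 22 genes, beside 11.7% of all. Both Ossl arrays were above the other 4 for 9 genes (13% of all probe sets), and below them for EXPB11 alone (13.5%). Both OsPE arrays were above the other 4 for EXPA2 and EXPB7 (12.5%) and below them for 0 genes (9.36%). In whole seedlings, fewer cells that express a gene and less RNA per cell cannot be told apart.

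EXPA5, EXPA1 and EXPA6 are alpha-expansins that did not pass. EXPA5 read 98.6 and 209 in OsPE, 67 and 59.9 in Osoc, and 89.9 and 105 in Ossl. Osoc against OsPE was -1.02 (95% interval -1.78 to -0.26; adjusted p = 0.115). The OsPE arrays lay far apart, and the lower of them fell between the Ossl arrays. Leaving out OsPE replicate 1 gave -1.50, and leaving out OsPE replicate 2 gave -0.53. EXPA1 read 354 and 284 in OsPE, 193 and 268 in Osoc, and 297 and 316 in Ossl, with a difference of -0.45 for Osoc against OsPE (adjusted p = 0.222). EXPA6 read 47.4 and 39 in OsPE, 30.7 and 28.9 in Osoc, and 73.2 and 70.3 in Ossl. Its difference between Ossl and Osoc was 0.94 (95% interval 0.07 to 1.81; adjusted p = 0.177).

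EXPA10, an expansin known to respond to aluminium in rice roots, read 974 and 978 in OsPE, 975 and 1016 in Osoc, and 1256 and 1031 in Ossl. None of its differences passed, and they ranged from 0.03 to 0.22. The interval for Osoc against OsPE was -0.20 to 0.26, which does not hold the fall measured for EXPB3, EXPB4 or EXPA2. EXPA16 had signals from 109 to 156 and differences between -0.16 and 0.05. EXPA7 and EXPA8, the latter known from root growth in rice, were above the 40th percentile on 3 of 6 arrays each, and gave intervals wider than 2 log2 units in every comparison. The 3 probe sets of EXPA7 read from 2.3 to 61, and neither of those tested passed.

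Of the other beta-expansins, EXPB11 read 130.1 and 181 in OsPE, 118 and 140 in Osoc, and 85.5 and 80.2 in Ossl. It was the one gene with both Ossl arrays lowest, with -0.78 (95% interval -1.38 to -0.18) against OsPE and adjusted p = 0.116. EXPB7 read 78.9 and 60.7 in OsPE, 45.1 and 28.6 in Osoc, and 50.1 and 3.1 in Ossl. Ossl against OsPE gave -1.26 (95% interval -2.51 to -0.02; adjusted p = 0.236). It passed only without Ossl replicate 1, where the second array, at 3.1, stood for the line alone (-2.16, adjusted p = 0.0477). Without Ossl replicate 2 the difference was -0.37 (adjusted p = 0.761), and an offset of 64 in place of 16 gave -0.61. EXPB8, EXPB9 and EXPB17 had signals from 3.7 to 66.2 on their brighter probe sets, with at least 1 dim array each, and did not pass.

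The remaining expansin-like genes did not pass. EXLA1 read 3749 and 3676 in OsPE, 3431 and 3723 in Osoc, and 3464 and 3798 in Ossl, so all 3 lines overlapped. Its differences were -0.05 for Osoc against OsPE (95% interval -0.21 to 0.10) and 0.02 for Ossl against Osoc (-0.13 to 0.18). Neither interval holds the change of EXPB3 in that comparison. EXLA3 read 184 and 138 in OsPE, 169.9 and 163 in Osoc, and 261 and 201 in Ossl. EXLA4 read 106 and 68.8, 87 and 81.7, and 108 and 145. Both had their highest signals in Ossl, at 0.42 (adjusted p = 0.3) and 0.49 (adjusted p = 0.396) against Osoc.

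The 8 genes not tested were EXPA3, EXPA4, EXPA26, EXPA29, EXPA31, EXPA32, EXPB10 and EXPB18. Their signals ran from 0.8 to 21.4, and all 8 were dim on every array. They include EXPA4, known from rapidly elongating internodes, and EXPB10, of the pollen allergen type. Nothing is said here of differences in these genes, since a dim signal gives a bound at most.

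Other genes of the wall were read from a list of symbols, of which 37 genes had a probe set and 33 were tested. In Osoc against OsPE 8 of the 33 fell and 0 rose, beside 3.85% lower and 3.61% higher among all probe sets. In Ossl against Osoc 10 rose and 0 fell, beside 5.93% and 5.27%. In Ossl against OsPE 3 rose and 0 fell, beside 4.11% and 3.81%. The median differences were -0.35, 0.35 and 0.09 in that order. Both Osoc arrays lay below the other 4 for 16 of the 33 genes and above them for 0, beside 13.3% and 11.7% of all probe sets.

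The cellulose synthases of growing walls include CESA3, CESA5, CESA6 and CESA8, and these 4 fell in Osoc against OsPE and rose in Ossl against Osoc. CESA6 read 1673 and 1625 in OsPE, 1045 and 881 in Osoc, and 1263 and 1365 in Ossl, with no overlap between lines. It fell by 0.77 (SE 0.10) in Osoc against OsPE, at adjusted p = 0.000564. CESA3 fell by 0.47 (SE 0.06; adjusted p = 0.000747), while its dimmer probe set did not pass in that comparison (-0.20, adjusted p = 0.764). In Ossl that dimmer probe set went the other way, with both arrays lowest: it fell by 1.05 against OsPE (adjusted p = 0.0351) and was at -0.84 against Osoc (adjusted p = 0.0714). CESA1 and CESA2 did not pass in any comparison.

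CSLF6, which makes the mixed-linkage glucan of grass walls, read 1473 and 1527 in OsPE, 898 and 797 in Osoc, and 1129 and 1261 in Ossl. It fell by 0.81 (SE 0.10) in Osoc against OsPE (adjusted p = 0.000354) and rose by 0.49 (SE 0.10) in Ossl against Osoc (adjusted p = 0.0062). Its other tested probe set, at signals from 14.6 to 46.9, did not pass. The secondary wall synthases CESA4, CESA7 and CESA9 fell in Osoc against OsPE, by 0.77, 1.26 and 1.35, although a second probe set of CESA4 did not pass there (-0.52, adjusted p = 0.28). CESA4 and CESA7 also rose in Ossl against OsPE, by 0.65 and 0.70 (adjusted p = 0.038 and 0.0179), where no expansin passed. The second probe set of CESA4 did not pass there either (0.42, adjusted p = 0.389). Whether expansins and cellulose synthases differ in this respect was not tested.

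**Figure D3:**
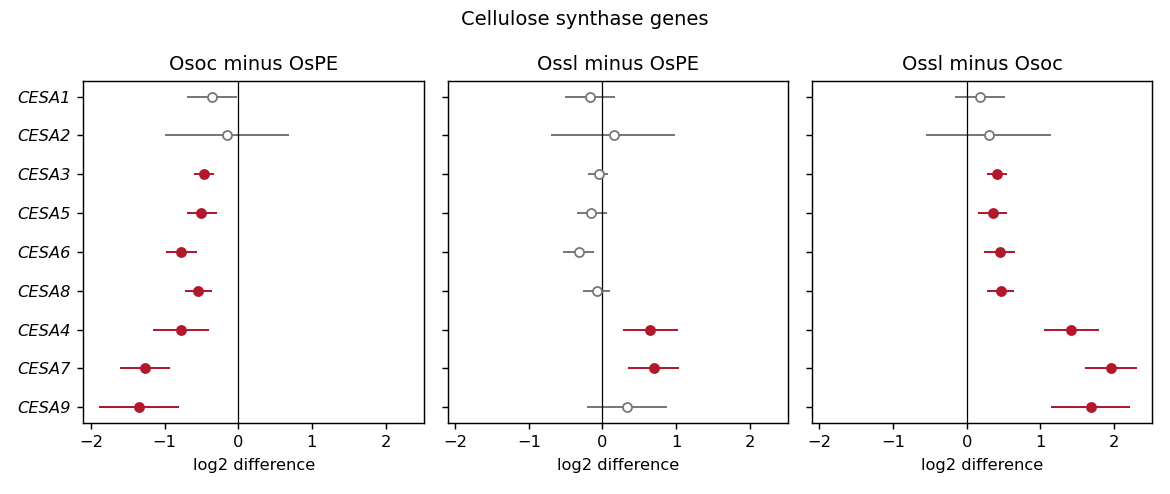
Log2 difference of signal + 16 between lines (horizontal axes) for the 9 cellulose synthase genes, with unadjusted 95% intervals of the limma fit. Filled red points passed at an adjusted p below 0.05. The lower 3 rows are the secondary wall genes CESA4, CESA7 and CESA9, and CESA4 and CESA7 alone are filled in the middle panel.

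Array and organ measures were set beside these results. Log2 signals correlated at 0.972 to 0.976 between arrays of 1 line and at 0.962 to 0.969 between lines, over probe sets, and no pair of arrays was identical. Poly-A control RNAs, which are spiked into a sample, differed by 0.05 at the 3′ end and 0.22 at the 5′ end (mean log2, 12 probe sets each) in Osoc against OsPE. In Ossl they differed by -0.49 and -1.13 against OsPE, and by -0.54 and -1.35 against Osoc. The 3′ minus 5′ signal of actin, GAPDH and EF1a was 0.69 to 1.87 (log2) and overlapped between the lines. The part of these measures in the results was not tested.

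Of 6 root markers, 0 passed between Osoc and either line, and their summed signal was 2307 to 2445 in OsPE, 2253 to 2312 in Osoc and 2040.4 to 2168 in Ossl. Root marker LSI2 was dim on all arrays and LSI1 read 1411 to 1673. LSI1 made up most of the sum. AMT1-2 was lower in Ossl against OsPE. In that comparison NAS2 was at -1.82 (adjusted p = 0.0713) and PHO1;2 at 0.40 (adjusted p = 0.185). IRT1 read 20.3 and 17.3 in OsPE, 1.9 and 3.1 in Osoc, and 36.2 and 42.9 in Ossl. This is the order of the lines in EXPB3, at 1.58 for Ossl against Osoc (adjusted p = 0.0896), with dim signals in OsPE and Osoc. Of 4 leaf markers, CAB2R was higher and PORB lower in Ossl against Osoc, and 0 passed in Osoc against OsPE. Of 6 grain markers, GLB1 alone passed, and it was lower in Osoc than in both other lines. GLB1 read 2860 and 2653 in OsPE, 2028 and 2161 in Osoc, and 2788 and 2820.2 in Ossl, the largest part of the grain sum. It was taken by symbol or synonym, and whether this gene is the grain globulin was not checked. The summed grain signal was 4163 to 4444, 3224 to 3441 and 4065 to 4115, while the glutelins GluA-1 and GluC and the prolamin RP5 were below 30 on every array. GluA-2 read 1392 and 1386 in OsPE, 1087 and 1165 in Osoc, and 1187 and 1166 in Ossl. Against OsPE it was at -0.30 in Osoc (adjusted p = 0.0537) and -0.24 in Ossl (adjusted p = 0.124). Unlike GLB1, it was nearly level between Ossl and Osoc (0.06, adjusted p = 0.732). RAG2 read 71.4 to 151 and was at -0.59 in Osoc against OsPE (adjusted p = 0.356). Of 6 anther markers, 1 gene under the symbol CP1 was higher in Ossl. It read 24374 to 30522 and made up nearly all of the summed signal. The sums were 24837 to 26088 in OsPE, 25433 to 25507 in Osoc and 29035 to 31076 in Ossl. A second gene under that symbol read 16.4 to 41.1 and did not pass. Which gene of that symbol is the anther marker was not checked, so the sums may not stand for anthers. OSC4 and OSC6 were below 70 on every array. MTR1 read 357 and 412 in OsPE, 371 and 349 in Osoc, and 471 and 452 in Ossl, highest in Ossl, at 0.34 against Osoc (adjusted p = 0.158). The part of these organs in the results was not tested.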

How the data were processed

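Per the labels, total RNA was labelled with biotin and hybridised to Affymetrix arrays, and GCOS 1.2 is named in the submitters' processing notes. The authors deposited 1 linear signal intensity per probe set and array, by an algorithm that no label states. The mean over all probe sets with controls, without the lowest and highest 2%, was 500.1 on every array, and the medians of the log2 values spanned 0.142, so the deposited scaling was kept. The number of arrays limits the precision.

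The 123 AFFX control probe sets were left out, which left 57258. Lines were compared with limma 3.58.1 (R 4.3.3; lmFit, eBayes with a trend) on log2(signal + 16), all 6 arrays in 1 fit with 3 residual degrees of freedom. The replicate number was not used, since deviations from the line means correlated at 0 to 0.014 between same-numbered arrays. P-values rest on the spread between these arrays, drawn towards the trend over all probe sets (8.98 prior degrees of freedom). The procedure was tested on simulated data. Their spread was set to follow the trend of the variance with signal, so they could not test that trend.

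Probe sets were named through the platform table and RefSeq (assembly ASM3414082v1, Japonica); the organism label is Oryza sativa Indica Group, and differences in probe sequence were not checked. Of all probe sets 22436 have 1 gene symbol, 95 several and 34850 none. Symbols can be shared: 1 of the 2 genes listed as BC1 is also named bHLH081. The organ markers were likewise taken by symbol or synonym. A marker may therefore be another gene of the same name, and this was not checked. Genes named singly were those past the threshold, the 6 with the highest signal, and those with a log2 difference of at least 1 and separate arrays that did not pass. Of the wall list the 4 with the lowest adjusted p were taken; other genes named were chosen after their values were seen. The genes and lists were chosen with earlier results of these data known. Tables and figures used Python 3.11.15, pandas 2.3.3 and matplotlib 3.10.9.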

Additional observations from a re-analysis of the deposited data

How the results depend on the processing

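Without the variance trend 0 genes passed in Osoc against OsPE, 0 in Ossl against Osoc, 0 set a line apart and 0 passed the F test, in place of 3, 5, 3 and 5. The F test called 3 genes at an adjusted p below 0.01 and 3 without the filter on dim probe sets. Leaving out each array in turn gave 3 to 4 genes in the F test and 3 to 5 in Ossl against Osoc, with the lowest count of the latter when either Osoc array was left out. It ended the call of EXPB4 in Osoc against OsPE without OsPE replicate 1, so EXPB4 then no longer set Osoc apart. It had the same effect on EXPA2 without Osoc replicate 1, through Ossl against Osoc. Without Ossl replicate 1 it left the genes that set a line apart the same, but EXPB3 then set Ossl apart as well as Osoc. In Ossl against OsPE it gave 0 to 2, the 2 being EXPB3 and EXPB7 without Ossl replicate 1. A line left with 1 array was assumed to vary like the others. With the replicate block, an analysis in which equal numbers are treated as paired, the counts were 3, 0 and 5, and 4 in the F test. The same-numbered arrays share only a number. None of the 8 calls changed direction in the 18 settings. The offset, normalization, filter, robust variance, lines compared and averaged probe sets ended 1 of the 8 calls, that of EXLA2 under median centring.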
